A study of Mus musculus with 10 samples.

Results

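The gp130 cytokine receptors and the leptin receptor were examined in ribosome-bound RNA of the ventral tegmental area (VTA), a midbrain site from which dopaminergic neurons project to the forebrain. The genes were taken by symbol from the deposited count table and are Il6st, Il6ra, Lifr, Cntfr, Osmr, Lepr and Il11ra1. These are 7 of the 56691 genes listed, and each was measured in every library. There were 5 restraint libraries, from male C57BL/6 mice restrained acutely for 30 min, and 5 control libraries, from unrestrained male C57BL/6 mice. The labels give the genotype of both groups as WT, and both carried NBL10-HA, the tagged construct by which ribosome-bound RNA of dopaminergic neurons was enriched. The promoter or virus that drove the construct, the age of the mice and whether a library held 1 mouse or a pool are not given in the sources used here. Nothing in the labels says that the libraries of a group came from separate animals, so p-values measure the spread between these libraries. The title of the series concerns phosphorylation of STAT3, the transcription factor on which these receptors converge, in stress-induced anxiety.

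Cytokines of the interleukin-6 family signal through gp130, the shared chain encoded by Il6st. Il6ra, Il11ra1 and Cntfr encode chains that bind interleukin-6, interleukin-11 and ciliary neurotrophic factor but have no kinase-recruiting tail of their own, so that a cell with gp130 responds to these ligands only where such a chain, membrane-bound or soluble, is present. Lifr and Osmr encode signalling chains that pair with gp130: LIFR for leukaemia inhibitory factor and, with CNTFR, for ciliary neurotrophic factor, and OSMR for oncostatin M. The leptin receptor, encoded by Lepr, is a close structural relative of gp130 that pairs with itself. Each signalling chain is bound by Janus kinases, which phosphorylate STAT3. In the ventral tegmental area, dopaminergic neurons with leptin receptors are known from studies of feeding.

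Library totals ran from 56082358 to 86584968 counts in restraint libraries and from 58326489 to 74851305 in control libraries. Even numbers made up 80.0 to 84.8% of the counts between 1 and 30 in restraint libraries and 76.8 to 79.8% in control libraries, and the part of this difference in any result was not tested. Restraint replicate 1 stood apart on the first principal component (22.6% of the variance), at 92.1 against -19.2 to 4.1 for the other libraries. The 10 dopamine neuron markers examined summed to 1460 to 2080 CPM (TMM-normalized counts relative to library size) in restraint libraries and 1190 to 1810 CPM in control libraries, and Th, the tyrosine hydroxylase gene, had 477 ± 65.3 CPM and 411 ± 78.6 CPM (SD, n = 5 each). The 10 astrocyte markers summed to 5820 to 6840 CPM in restraint libraries and 5320 to 6090 CPM in control libraries. Gfap alone had a mean of 2471 CPM in restraint libraries and 1919 CPM in control libraries. Of the dopamine neuron markers, 6 had a higher mean after restraint at an unadjusted p under 0.05, and 1 of the astrocyte markers did, where 5.64% of all genes tested were higher at that p, with 0 past the adjusted threshold in edgeR. Markers of other cells were thus present beside those of the labelled type. Input RNA from before the enrichment was not analysed here, so a receptor level cannot be placed in 1 cell type, and fewer cells of a type cannot be told apart from less RNA per cell.

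The receptor genes formed an abundant group and a scarce one. Levels of different genes were compared as CPM per kilobase of the deposited exon length. Cntfr was the highest, at 26.1 ± 4.56 CPM per kilobase in restraint libraries and 26.7 ± 4.10 in control libraries (SD, n = 5 each). Il11ra1 followed at 11.8 ± 2.17 in restraint libraries and 9.45 ± 1.10 in control libraries, and Il6st at 7.56 ± 0.881 and 6.69 ± 0.721 CPM per kilobase. Thus the gp130 message was below those of the ligand-binding chains for ciliary neurotrophic factor and interleukin-11. Lifr had 4.02 ± 0.402 CPM per kilobase in restraint libraries and 4.10 ± 0.702 in control libraries. Osmr had 0.670 ± 0.146 in restraint libraries and 0.426 ± 0.128 in control libraries. Lepr had 0.144 ± 0.0405 CPM per kilobase after restraint and 0.128 ± 0.0244 in controls. Il6ra, the chain that confers interleukin-6 binding, was last by the group means, at 0.114 ± 0.0333 in restraint libraries and 0.106 ± 0.0409 in control libraries.

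**Figure D1:**
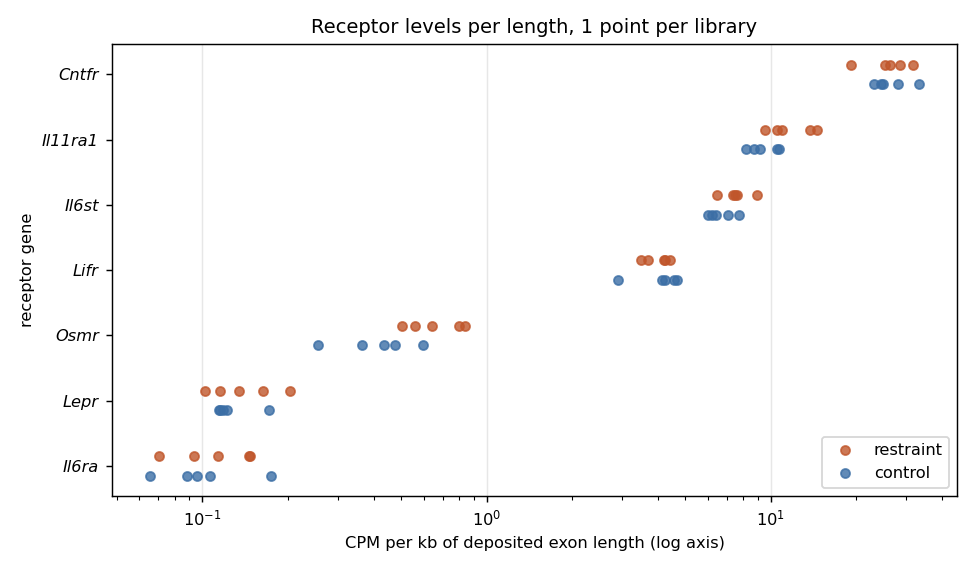
Level of each receptor gene in CPM per kilobase of exon (log axis), 1 point per library, restraint (orange) above control (blue). Cntfr, Il11ra1, Il6st and Lifr sit at group means of 4.02 to 26.7, Osmr at 0.426 to 0.670, and Lepr and Il6ra at 0.106 to 0.144.

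The order from Cntfr to Osmr was the same in each of the 5 restraint and 5 control libraries. The ranges of Il11ra1 and Il6st overlapped across libraries, although Il11ra1 was the higher within each library. Lepr and Il6ra could not be ordered beyond their spread: Lepr was the higher in 4 of 5 restraint and 4 of 5 control libraries. Exon length counts the exons of every annotated isoform, so genes with many rare exons appear low. With the length of the longest coding transcript instead, a choice made after seeing the data, the order of the means was the same, and the mean over 10 libraries moved most for Il11ra1, to 23.7 CPM per kilobase from 10.6 with the deposited length, and for Osmr, to 1.21 from 0.548. As a share of the summed level of the 7 genes per kilobase, Cntfr made up 42.6 to 57.8% in restraint libraries and 52.5 to 60.9% in control libraries. Il11ra1 made up 17.5 to 30.5% in restraint libraries and 15 to 24% in control libraries. Osmr made up 0.967 to 1.87% in restraint libraries and 0.572 to 1.22% in control libraries.

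The comparison of restraint with control asked whether a short stress changed these receptor messages. None of the 7 genes passed an adjusted p of 0.05 in edgeR's quasi-likelihood test with Benjamini-Hochberg adjustment over 18440 genes, against 0.0217% of all genes tested (4 genes; 0.00542% higher and 0.0163% lower). DESeq2 and limma-voom called 0 of the 7 as well. At an unadjusted p under 0.05 there were 2 receptor genes, Osmr and Il11ra1, both with higher means in restraint libraries, where 5.64% of all genes tested had such a p with a higher mean and 11.7% in either direction. No receptor gene had restraint and control libraries that did not overlap, against 2.61% of all genes tested. The median log2 fold change of the 7 was 0.165, against -0.0022 for all genes tested, and 5 of the 7 were positive, against 49.6% of all genes. Without restraint replicate 1 the edgeR counts were 0 past the adjusted threshold and 2 at an unadjusted p under 0.05, and the median was 0.243. With other libraries left out, the count at an unadjusted p under 0.05 was 1 without restraint replicate 2 and 3 without restraint replicate 5 or control replicate 2, and the median was 0.056 without restraint replicate 5.

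**Figure D2:**
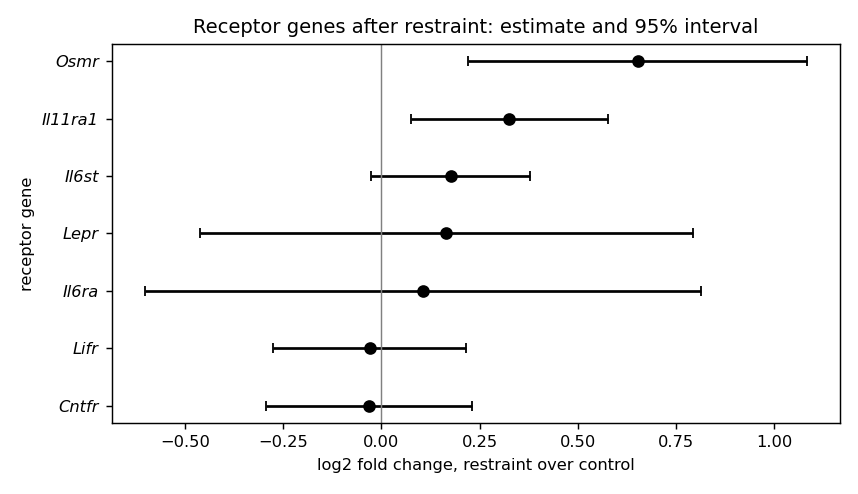
Log2 fold change of each receptor gene, restraint over control, with its 95% confidence interval from edgeR's quasi-likelihood fit. The intervals of Osmr (0.22 to 1.08) and Il11ra1 (0.07 to 0.58) lie above 0 and those of the other 5 genes include 0.

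Osmr, the signalling chain for oncostatin M, had the largest difference among the 7. It had 9.69, 6.12, 6.80, 7.76 and 10.2 CPM in restraint replicates 1 to 5, against 5.29, 5.77, 7.23, 4.42 and 3.08 CPM in control replicates 1 to 5. All 5 restraint libraries were above the control median and 3 were above the highest control library, so the groups overlapped. The means were 8.11 ± 1.77 CPM in restraint libraries and 5.16 ± 1.54 CPM in control libraries (SD, n = 5 each). The log2 fold change was 0.65 ± 0.20 (SE; 95% interval 0.22 to 1.08), or 57.1% higher, with an unadjusted p of 0.00546 and an adjusted p of 0.215 in edgeR's quasi-likelihood test. With the filter lowered to at least 1 count per gene, the same test gave an adjusted p of 0.0432, and over the other alternatives it ran up to 0.439. Osmr in brain is known from astrocytes, endothelial cells and fibroblasts. The 8 endothelial markers summed to 11 to 15.7 CPM in restraint libraries and 8.35 to 12.9 CPM in control libraries. The 7 meningeal fibroblast markers summed to 10.9 to 15.5 CPM in restraint libraries and 8.85 to 10.6 CPM in control libraries, without overlap, and the part of any of these cells in the Osmr difference was not tested.

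**Figure D3:**
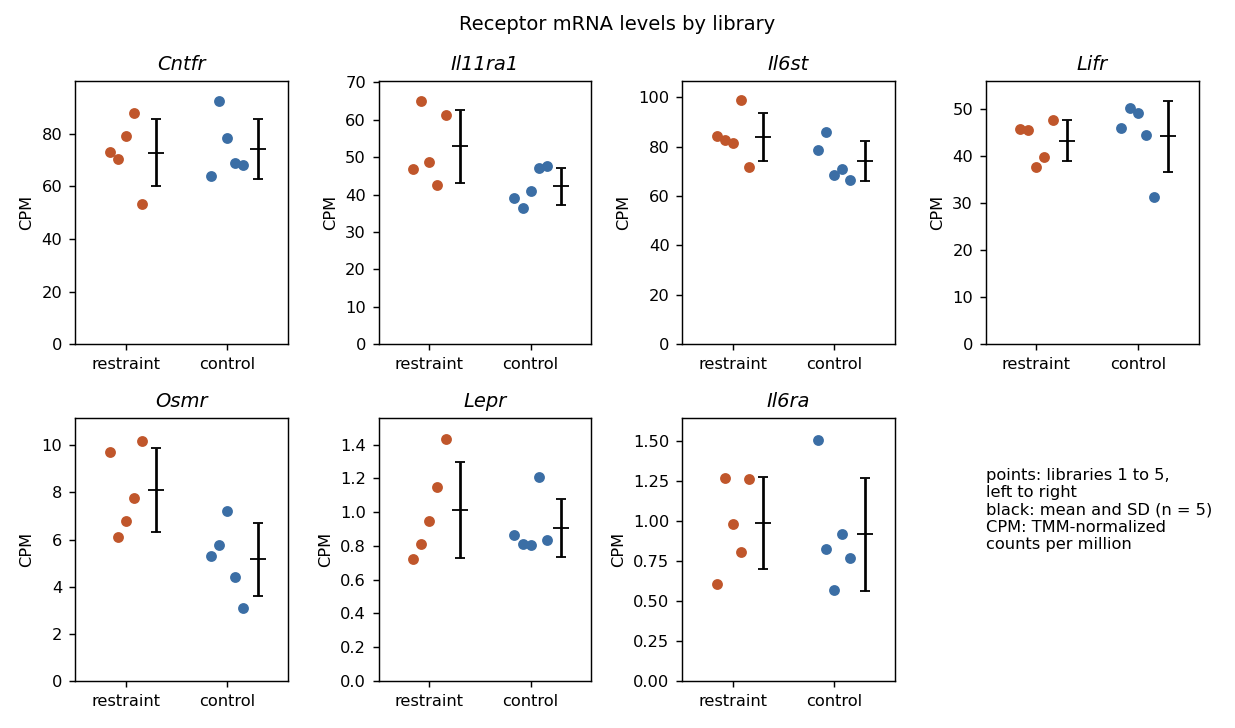
TMM-normalized CPM of each receptor gene in each library, 1 panel per gene, restraint left of control, with the group mean ± SD as a black bar. Osmr lies at 6.12 to 10.2 CPM in restraint libraries and 3.08 to 7.23 CPM in control libraries, and the points of both groups overlap in each of the 7 panels.

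Il11ra1, the binding chain for interleukin-11, had 46.8, 65.0, 48.8, 42.6 and 61.4 CPM in restraint replicates 1 to 5, against 39.0, 36.5, 41.0, 47.0 and 47.6 CPM in control replicates 1 to 5. All 5 restraint libraries lay above the control median, and 3 lay above the highest control library. The log2 fold change was 0.33 ± 0.12 (SE; 95% interval 0.07 to 0.58), with an adjusted p of 0.281 in edgeR's quasi-likelihood test. Without restraint replicate 2 the log2 fold change was 0.235 and the unadjusted p in edgeR's fit was 0.0566. The near-identical gene Il11ra2 held 0 to 7 counts per library. Multi-mapping reads were not counted, so Il11ra1 may be undercounted.

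Il6st, the shared gp130 chain, had 84.4, 82.7, 81.6, 98.9 and 71.7 CPM in restraint replicates 1 to 5, against 78.5, 86.1, 68.7, 71.1 and 66.7 CPM in control replicates 1 to 5. All 5 restraint libraries were above the control median and 1 was above the highest control library. The log2 fold change was 0.18 ± 0.10 (SE; 95% interval -0.03 to 0.38), and its adjusted p was 0.506 in edgeR's quasi-likelihood test.

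The other abundant chains had means closer together. Lifr, which serves leukaemia inhibitory factor, had 45.9, 45.5, 37.7, 39.8 and 47.7 CPM in restraint replicates 1 to 5, against 45.9, 50.2, 49.1, 44.6 and 31.3 CPM in control replicates 1 to 5. Cntfr, a glycolipid-anchored chain typical of neurons, had 73.1, 70.3, 79.0, 87.7 and 53.4 CPM in restraint replicates 1 to 5, against 63.9, 92.4, 78.2, 68.8 and 68.0 CPM in control replicates 1 to 5. For Cntfr the lowest value was in a restraint library and the highest in a control library. Both genes had a log2 fold change of -0.03 ± 0.12 (SE), with 95% intervals of -0.28 to 0.22 for Lifr and -0.29 to 0.23 for Cntfr. The adjusted p was 0.957 for Lifr and 0.959 for Cntfr in edgeR's quasi-likelihood test.

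Lepr and Il6ra were near 1 CPM in both groups. Lepr had 0.721, 0.814, 0.946, 1.15 and 1.44 CPM in restraint replicates 1 to 5, against 0.861, 0.811, 0.803, 1.21 and 0.836 CPM in control replicates 1 to 5. Il6ra had 0.606, 1.27, 0.982, 0.805 and 1.26 CPM in restraint replicates 1 to 5, against 1.504, 0.825, 0.565, 0.920 and 0.766 CPM in control replicates 1 to 5. These levels rest on 48 to 123 counts per library for Lepr and 38 to 108 for Il6ra, against a floor of 3 counts, which is 0.035 to 0.0546 CPM in restraint libraries and 0.0399 to 0.0522 CPM in control libraries. Each mate was counted, so these counts and the floor can stand for fewer fragments than their number. The log2 fold change of Lepr was 0.17 ± 0.30 (SE; 95% interval -0.46 to 0.79) and that of Il6ra 0.10 ± 0.33 (SE; 95% interval -0.60 to 0.81), with adjusted p-values of 0.894 for Lepr and 0.946 for Il6ra in edgeR's quasi-likelihood test. Differences within these intervals were not resolved by these libraries. The counts do not tell the long, signalling form of the leptin receptor from its short forms.

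2 pairs of receptor genes are neighbours in the genome, and each pair joins a gene with a positive log2 fold change to one near 0. In GRCm39, Cntfr (chr4:41657498-41697089, minus strand) and Il11ra1 (chr4:41699989-41769474, plus strand) lie 2899 bases apart and point away from each other, with 0 annotated genes between them. Such distances run between the outermost annotated ends of any isoform and not between promoter windows. The RefSeq promoter windows of Il11ra1 begin at 41760193 and 41762060 on chromosome 4 of GRCm38.p6, and no coordinate was converted between builds. Osmr (chr15:6843058-6904450, minus strand) and Lifr (chr15:7120095-7226970, plus strand) also point away from each other, with 215644 bases and 1 predicted gene between them. Osmr stood at 18.8, 12, 16.1, 17.3 and 19.0% of the Lifr level per kilobase in restraint replicates 1 to 5, against 10.3, 10.2, 13.1, 8.83 and 8.75% in control replicates 1 to 5. In 4 of 5 restraint libraries this share was above the highest control library. Il11ra1 stood at 39.9, 57.5, 38.5, 30.2 and 71.6% of the Cntfr level in restraint replicates 1 to 5, against 38.0, 24.6, 32.6, 42.5 and 43.6% in control replicates 1 to 5. 2 restraint libraries were above the highest control library, and 1 restraint library was below the control median. Of the other genes, Il6st lies on chromosome 13, Il6ra on chromosome 3, and Lepr on chromosome 4, where Leprot, whose product limits the amount of leptin receptor at the cell surface, lies 58039 bases away on the same strand. Reads that overlap 2 genes were not assigned, which touched 242 exon bases of Il6ra (2.8%) and 8 of Il11ra1 (0.179%), while the other 5 shared none with another gene.

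**Figure D4:**
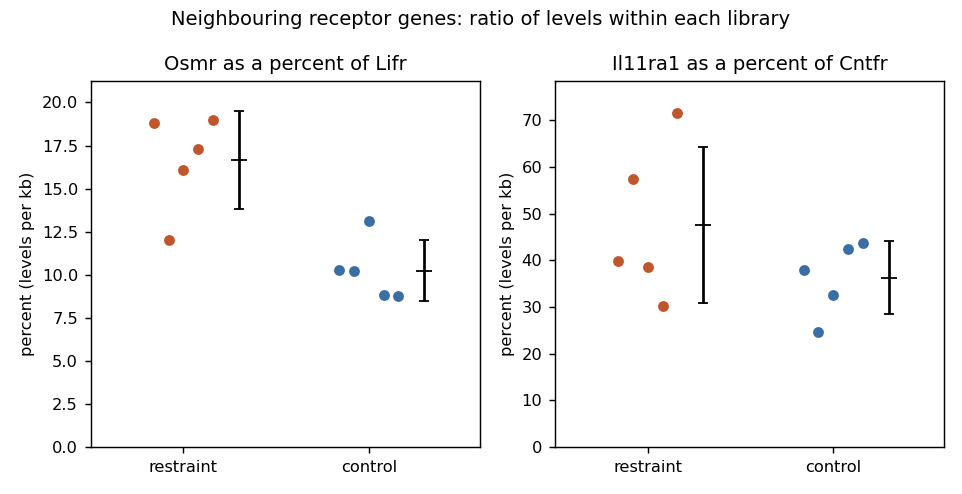
Ratio of the levels per kilobase of the neighbouring receptor genes, Osmr to Lifr and Il11ra1 to Cntfr, in percent, 1 point per library with the group mean ± SD as a black bar, restraint left of control. The Osmr to Lifr ratio averaged 16.6% in restraint libraries and 10.2% in control libraries.

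Promoter windows of the neighbouring pair with the largest difference in response are printed with that of the gp130 gene and of Il11ra1, to show the letters in which they differ. Lifr and Il11ra1 have 2 windows each, of which that with the start farthest upstream is shown. They are RefSeq windows of GRCm38.p6, 250 bases before to 50 after a start, 5′ to 3′ on the gene's strand, with motif matches in capitals. The GC box GGGCGG or its reverse complement is capitalised in each. In the Osmr window a match to TGANTCA, a loose form of the AP-1 motif with any base at N, is capitalised too.
Osmr (chr15:6874264-6874563, minus strand): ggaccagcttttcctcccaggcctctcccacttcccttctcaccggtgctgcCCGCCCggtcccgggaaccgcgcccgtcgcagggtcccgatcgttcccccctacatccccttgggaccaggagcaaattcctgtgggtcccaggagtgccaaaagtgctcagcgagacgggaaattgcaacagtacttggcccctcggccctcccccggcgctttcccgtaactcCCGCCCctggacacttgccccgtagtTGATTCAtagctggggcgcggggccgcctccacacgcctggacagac
Lifr (chr15:7129322-7129621, plus strand): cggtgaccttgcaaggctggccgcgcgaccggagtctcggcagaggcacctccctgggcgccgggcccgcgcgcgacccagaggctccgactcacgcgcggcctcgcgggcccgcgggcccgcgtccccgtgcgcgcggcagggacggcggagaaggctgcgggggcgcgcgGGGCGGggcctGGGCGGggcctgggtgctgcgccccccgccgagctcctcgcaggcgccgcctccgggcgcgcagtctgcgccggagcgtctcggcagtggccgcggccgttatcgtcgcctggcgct
Il11ra1 (chr4:41760193-41760492, plus strand): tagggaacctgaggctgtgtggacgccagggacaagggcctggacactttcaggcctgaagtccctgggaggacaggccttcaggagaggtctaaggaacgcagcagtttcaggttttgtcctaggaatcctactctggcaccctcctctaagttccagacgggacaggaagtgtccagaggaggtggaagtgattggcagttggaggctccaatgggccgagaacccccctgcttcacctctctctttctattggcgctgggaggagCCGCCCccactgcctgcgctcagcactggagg
Il6st (chr13:112463820-112464119, plus strand): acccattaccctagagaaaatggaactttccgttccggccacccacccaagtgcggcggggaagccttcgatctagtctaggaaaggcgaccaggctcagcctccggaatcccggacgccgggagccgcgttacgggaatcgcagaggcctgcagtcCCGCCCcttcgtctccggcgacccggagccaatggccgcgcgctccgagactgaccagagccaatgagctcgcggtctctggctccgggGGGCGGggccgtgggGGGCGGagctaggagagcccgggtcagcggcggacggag
The Osmr window held TGATTCA, a match to this loose form of the AP-1 motif, at base 4 after its start. A stricter form of the AP-1 motif was not searched. 15 windows of the 7 receptor genes were searched on both strands, and this was the 1 window with TGANTCA, which 7.81% of 32851 mouse promoter windows hold. The STAT motif TTCNNNGAA was in 0 of the 15 windows and in 8.3% of all windows, and its stricter form TTCCNGGAA, each match of which also matches TTCNNNGAA, was in 0 of the 15 and in 1.15% of all windows. The cyclic AMP response motif TGACGTCA was in 0 of the 15 windows (1.79% of all) and the TATA motif TATAAA in 0 (13.6% of all). GC boxes were in 10 of the 15 windows, against 35.7% of all windows. The 15 windows are not separate stretches, so the same box can be counted more than once. The Cntfr windows chr4:41695404-41695703 and chr4:41695426-41695725 overlap and share a box. So do chr4:41695876-41696175 and chr4:41695671-41695970. The GC content of the printed windows was 66.0% for Osmr, 81.3% for Lifr, 59.3% for Il11ra1 and 68.3% for Il6st, against a median of 52.7% over all windows. The window of Lifr that is not shown had 53.3% GC and 0 GC boxes, and that of Il11ra1 57.7% GC and 1 GC box. A match is a description of these letters and not a bound site.

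The other genes of the pathway were read from 6 lists. Of 80 pathway genes tested, 0 passed an adjusted p of 0.05 in edgeR's quasi-likelihood test and 14 had an unadjusted p under 0.05, where 11.7% of all genes tested had one. DESeq2 called 5 of them, and edgeR with a filter of at least 1 count called 6 of 90, each a STAT3 target list member with a higher mean after restraint. Among all genes, DESeq2 called 331 and edgeR with that filter 302, against 4 in the main fit.

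Ligand messages were scarce. Of 13 ligand genes listed, 6 were tested and 0 had an unadjusted p under 0.05 by edgeR, DESeq2 or limma-voom. In edgeR the count was 2 without restraint replicate 2 and 1 without restraint replicate 5. The highest was Lif, encoding leukaemia inhibitory factor, at 3.63 CPM in restraint libraries and 3.30 CPM in control libraries (log2 fold change 0.14 ± 0.22, SE). Il11 had 0.365 CPM in restraint libraries and 0.585 CPM in control libraries, with a log2 fold change of -0.67 ± 0.53. Clcf1, a ligand gene for CNTFR, had 0.257 CPM in restraint libraries and 0.425 CPM in control libraries, with a log2 fold change of -0.72 ± 0.53 (SE). The messages of the other main ligands were too low to test. Il6 had 14, 0, 16, 6 and 26 counts in restraint replicates 1 to 5, against 0, 2, 10, 0 and 0 counts in control replicates 1 to 5. Osm, the ligand of OSMR, had 0, 3, 0, 0 and 10 counts in restraint replicates 1 to 5, against 6, 0, 2, 0 and 4 counts in control replicates 1 to 5. Il31 and Lep, the gene for leptin, had 0 counts in the 10 libraries.

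Among 12 tested of 17 other class I cytokine receptors, 1 had an unadjusted p under 0.05, which is near the 11.7% of all genes tested. This was Il13ra1, a receptor chain for interleukin-13, with 19.2 ± 3.15 CPM in restraint libraries and 15.4 ± 1.66 CPM in control libraries (SD, n = 5 each) and an adjusted p of 0.304 in edgeR's quasi-likelihood test. Il27ra, which pairs with gp130 for interleukin-27, had 0.643 CPM in restraint libraries and 0.327 CPM in control libraries (log2 fold change 0.97 ± 0.50, SE). Csf2ra, a chain of the receptor for a colony-stimulating factor, had a log2 fold change of 0.23 ± 0.15 (SE). The count at an unadjusted p under 0.05 was 0 without restraint replicate 3 or 4, 2 without control replicate 1 or 2, and 3 without restraint replicate 1.

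In the signalling step at the receptor, 0 of 16 genes had an unadjusted p under 0.05 by edgeR, and the list's median log2 fold change was -0.018. Jak2, the kinase that serves the leptin receptor, had 32.2 CPM in restraint libraries and 29.1 CPM in control libraries (log2 fold change 0.15 ± 0.09, SE). Stat5a had a log2 fold change of 0.35 ± 0.22 and Sos1, an exchange factor of the Ras branch, of -0.14 ± 0.08 (SE). Among 16 negative regulators, 1 had a higher and 2 a lower mean at an unadjusted p under 0.05, where 5.64% of all genes tested were higher and 6.04% lower. Pias3, encoding an inhibitor of STAT3, had 14.98 ± 2.82 CPM in restraint libraries and 19.8 ± 1.09 CPM in control libraries (SD, n = 5 each), with a log2 fold change of -0.40 ± 0.12 (SE) and an adjusted p of 0.19 in edgeR's quasi-likelihood test. Ptpn2, a phosphatase of Janus kinases and STATs, had a log2 fold change of 0.33 ± 0.13, and Socs7 of -0.22 ± 0.09 (SE). Of 9 genes for receptor shedding and trafficking, 1 had an unadjusted p under 0.05, near the 11.7% of all genes tested: Sorl1, a sorting receptor, had 225 CPM in restraint libraries and 187 CPM in control libraries, with an adjusted p of 0.327 by edgeR. Adam17, the protease that sheds the interleukin-6 receptor, had a log2 fold change of 0.28 ± 0.16, and Leprot of -0.15 ± 0.10 (SE). With 1 library left out, the counts at an unadjusted p under 0.05 changed as follows. The signalling list had 1 without restraint replicate 4 or control replicate 5. The negative regulators had 1 without restraint replicate 3, and 2 without restraint replicate 4 or control replicate 1 or 2. The shedding list had 0 without restraint replicate 3 or 4 or control replicate 3 or 5, 2 without control replicate 2, and 3 without restraint replicate 5.

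Among the 6 lists, that of the genes known to be induced through gp130 and STAT3 was the longest and held the most members at an unadjusted p under 0.05. Of 22 tested, 9 had an unadjusted p under 0.05 with a higher mean after restraint and 0 with a lower one, against 5.64% and 6.04% of all genes tested, and 20 had a positive log2 fold change. The median was 0.316, against -0.0022 for all genes tested. Such a shift was not particular to this list: the dopamine neuron markers had a median of 0.332, with 6 of 10 higher at that p. Medians of the cell type marker lists ran from -0.584 for choroid plexus and ependyma to 0.394 for meningeal fibroblasts. No member passed the adjusted threshold in edgeR, whereas DESeq2 called 5 (Fos, Bcl6, Gfap, Serpina3n and A2m) and edgeR with a filter of at least 1 count called 6 (Cebpd, Junb, Fos, Bcl6, Serpina3n and A2m). Among all genes, those settings called 331 with DESeq2 and 302 with the lower filter. Several of these genes are also induced without STAT3, among them Fos and Junb by neuronal activity. A2m, a protease inhibitor gene, had 31.5, 26.6, 27.8, 27.0 and 32.2 CPM in restraint replicates 1 to 5, against 25.0, 15.7, 22.3, 19.1 and 17.1 CPM in control replicates 1 to 5. The groups did not overlap, and the log2 fold change was 0.55 ± 0.12 (SE) with an adjusted p of 0.0893 in edgeR's quasi-likelihood test and of 0.00174 with the filter of at least 1 count. Gfap, the astrocyte filament gene, had 2471 ± 316 CPM in restraint libraries and 1919 ± 121 CPM in control libraries (SD, n = 5 each), without overlap, and an adjusted p of 0.118 by edgeR. The 10 astrocyte markers, which include Gfap, summed to 5820 to 6840 CPM in restraint libraries and 5320 to 6090 CPM in control libraries. Of these markers 6 had a positive log2 fold change, against 49.6% of all genes, and their median was 0.079. Only Gfap among them had an unadjusted p under 0.05 in edgeR. The part of astrocyte content in these differences was not tested. Cebpd, a transcription factor of the acute phase, had 12.9, 21.6, 15.4, 22.2 and 43.5 CPM in restraint replicates 1 to 5, against 9.24, 8.56, 17.2, 9.33 and 9.35 CPM in control replicates 1 to 5. Its log2 fold change was 1.11 ± 0.27 (SE), with an adjusted p of 0.136 by edgeR and of 6.47e-07 with the filter of at least 1 count. Over the leave-one-out fits the list held 7 to 12 genes at an unadjusted p under 0.05, and its median ran from 0.24 to 0.384.

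**Figure D5:**
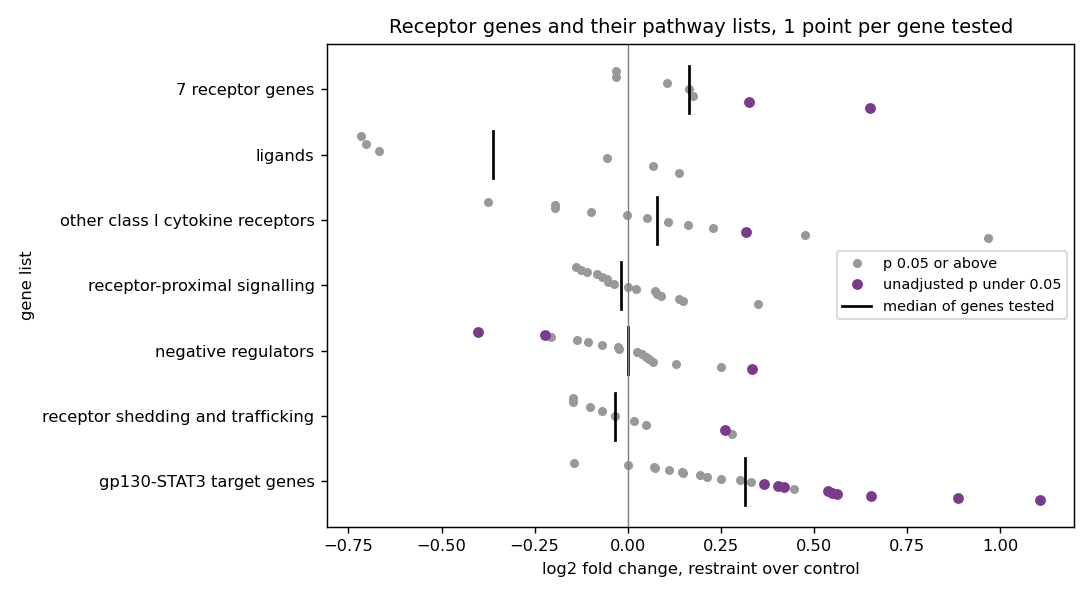
Log2 fold change, restraint over control, of each tested gene in the receptor family and in 6 pathway lists, with the list median as a bar and genes at an unadjusted p under 0.05 in purple. The receptors' median is 0.165 and that of the gp130-STAT3 target genes 0.316.

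The genes whose levels across the 10 libraries were most like those of Osmr and Il11ra1, the 2 most variable receptors with a mean log2 CPM above 0, were found by the root mean square difference of centred log2 CPM. For Osmr (SD of log2 CPM 0.515) these were Vwf, an endothelial gene, at 0.169, Gem at 0.221 and Fosl2 at 0.237. Vwf had 1.97 CPM in restraint libraries and 1.35 CPM in control libraries. Gem had 4.91 CPM in restraint libraries and 3.23 CPM in control libraries, and Fosl2, an AP-1 family gene, 36.1 CPM and 26.6 CPM. For Il11ra1 (SD of log2 CPM 0.265) they were Atf4, a stress-response transcription factor gene, at 0.053, D16Ertd472e at 0.104 and Wdr83 at 0.106. Atf4 had 253 CPM in restraint libraries and 208 CPM in control libraries. These likenesses are taken over the same libraries, of which 5 were of each group, and describe them only.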

How the data were processed

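Ribosome-bound RNA was sequenced from 5 restraint and 5 control libraries, grouped by the treatment label. The deposited table holds whole-number read counts per gene and library, which the authors made with featureCounts 2.0.3, summing exon reads per gene of GENCODE M30 (GRCm39), per the file headers. The recorded options count each mate, ignore strand and leave out reads that map to several places. FastQC, Trimmomatic and STAR, without versions, and mm10 are named in the submitters' processing notes, and coordinates of genes are given as the table holds them. No row lacked a gene identifier. Exon lengths are those the table lists, and 52073 of 56691 genes were given symbols from GENCODE M21 gene names. Promoter windows came from RefSeq (GRCm38.p6), in which all 7 receptor genes matched, and no coordinate was converted between builds.

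In R 4.3.3, filterByExpr with a minimum count of 10 and a minimum total of 15 kept 18440 genes, and libraries were scaled by TMM. The quasi-likelihood test of edgeR 4.0.16 (glmQLFit, glmQLFTest) had group as its term, with Benjamini-Hochberg adjustment over all genes tested and a threshold of 0.05. A prior count of 2 entered log2 CPM. Python 3.11.15 and matplotlib 3.10.9 served for promoter searches and figures. The edgeR test was tested on simulated counts. Alternatives used DESeq2 1.42.0, limma 3.58.1 (voom), other normalizations and filters, halved counts, a length trend offset (lowess, span 0.3), a replicate block and the removal of each library. Within each group, pairs of libraries differed by more than sampling noise (chi-square per degree of freedom 28.9 to 93.5). This cannot tell separate animals from separate preparations of 1 animal or pool. Each library was counted as 1 replicate.

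The receptor genes and the gene lists were chosen with earlier results of these data known. The genes named are the 7 receptors, the 3 members of each pathway list with the smallest p, the 3 genes most like each of the 2 most variable receptors with a mean log2 CPM above 0, and the 2 most abundant markers of each cell type. A few genes within this rule are not reported here. Lif, Il6, Osm, Il31, Lep, Il11ra2 and the further target genes that DESeq2 or the lower filter called were named after their values were seen. Counting intervals and floors cover counting error only.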

Additional observations from a re-analysis of the deposited data

Results flagged for a closer look

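In 5 of 104 groups of 5 libraries examined, 1 library stood far from the other 4 by Dixon's criterion, which chance meets in about 1 of 20 groups. Among the receptor genes this was Lepr, at 1.21 CPM in control replicate 4 against 0.803 to 0.861 CPM in the other controls. The same library had 30.7 CPM of Jak2, the kinase of the leptin receptor, against 28.4 to 28.9 CPM in the other controls. Stat5a had 1.72 CPM in restraint replicate 2, where the other restraint libraries had 2.34 to 2.55 CPM. Cebpd had 17.2 CPM in control replicate 3, against 8.56 to 9.35 CPM in the other controls. Gad1, encoding the enzyme of GABA synthesis, had 428 CPM in control replicate 5, against 565 to 614 CPM in the other controls.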

How the results depend on the processing

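The edgeR test called 4 genes in all. The count was 17 with library size only, 302 with a filter of at least 1 count, 331 with DESeq2, 87 with voom quality weights, 68 with a length trend offset and 0 with robust dispersion (2154 at an unadjusted p under 0.05), and it ran from 0 to 92 when each library was left out. The cause of these moves was not tested. Osmr passed with the filter of at least 1 count (log2 fold change 0.647, adjusted p 0.0432 in edgeR), and its adjusted p was 0.0521 with DESeq2 and up to 0.439 elsewhere. Its log2 fold change ran from 0.507 without control replicate 5 to 0.812 without control replicate 3. Il11ra1 and Il6st also stayed positive under the 23 alternatives. Cntfr was 0.015 with voom quality weights. With each library left out, log2 fold changes crossed 0 for Il6ra (-0.02 to 0.36), Lifr (-0.139 to 0.024), Cntfr (-0.102 to 0.065) and Lepr (-0.003 to 0.288). Il6ra and Lepr could not be fitted under a filter of CPM of at least 1 in 5 libraries. Of 126 receptor levels under alternatives 10 moved, each by the other length. Of 548 values of the other 24 named genes, 543 kept their direction and side of the threshold, and 5 passed it.

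With a replicate block 0 genes were called (1704 at an unadjusted p under 0.05), and 0 with the block and the length trend offset together (1915). Under the replicate block Osmr had a log2 fold change of 0.674 (adjusted p 0.439 in edgeR) and Il11ra1 of 0.314 (adjusted p 0.489). After each gene's group mean of log2 CPM was subtracted, the deviations of libraries of the same number correlated at -0.164 to 0.027. By these deviations 0 of 5 restraint libraries correlated best with their own number, so the numbers were not taken as pairs. Lepr and Il6ra had the fewest counts, 38 to 123 per library, and how far depth sets their errors was not tested.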

Other observations

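Markers of the vessel wall and its surroundings were measured beside the receptors. All 8 endothelial markers had positive log2 fold changes, against 49.6% of all genes tested. Of these markers 2 had an unadjusted p under 0.05 in edgeR, where 5.64% of all genes tested were higher at that p, with 0 past the adjusted threshold. Flt1, a receptor for vascular endothelial growth factor, had 2.90 ± 1.20 CPM in restraint libraries and 1.70 ± 0.409 CPM in control libraries (SD, n = 5 each), while Slco1a4, a transporter of the blood-brain barrier, had 2.47 and 2.23 CPM. The pericyte and vascular smooth muscle markers summed to 11.2 to 17.3 CPM in restraint libraries and 10.1 to 14 CPM in control libraries. Rgs5, a pericyte gene, had 5.58 CPM in restraint libraries and 4.14 CPM in control libraries, and Vtn 3.18 and 2.94 CPM. Of the 6 meningeal fibroblast markers tested, 5 had a positive log2 fold change, against 49.6% of all genes tested. Dcn, a matrix proteoglycan gene, had 3.62 ± 1.55 CPM in restraint libraries and 2.32 ± 0.392 CPM in control libraries (SD, n = 5 each), and Col1a2 had 4.15 and 3.46 CPM.

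Of 8 oligodendrocyte markers, 3 had a higher mean after restraint at an unadjusted p under 0.05 in edgeR, against 5.64% of all genes tested, and 0 passed the adjusted threshold. Oligodendrocyte markers summed to 1480 to 2040 CPM in restraint libraries and 1550 to 1890 CPM in control libraries, with Mbp, a myelin protein gene, at 428 CPM in restraint libraries and 385 CPM in control libraries. Precursor markers summed to 109 to 131 CPM in restraint libraries and 99.7 to 144 CPM in control libraries, with C1ql1 at 80.1 and 77.4 CPM and Gpr17 at 13.6 and 17.4 CPM. Microglia markers summed to 22.3 to 30.4 CPM in restraint libraries and 22.3 to 35.0 CPM in control libraries, with C1qa, a complement gene, at 5.45 and 5.75 CPM. Aldoc, an astrocyte enzyme gene, had 1322 CPM in restraint libraries and 1432 CPM in control libraries.

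Among neurons, Ddc, which encodes the second enzyme of dopamine synthesis, had 278 CPM in restraint libraries and 287 CPM in control libraries. GABA neuron markers summed to 958 to 1330 CPM in restraint libraries and 902 to 1290 CPM in control libraries, with Gad1 at 533 and 549 CPM and Gad2 at 350 and 355 CPM. Glutamate neuron markers summed to 430 to 574 CPM in restraint libraries and 475 to 517 CPM in control libraries, with Slc17a6, the vesicular glutamate transporter, at 380 and 398 CPM. Nrn1, an activity-regulated neuritin gene, had 80.9 CPM in restraint libraries and 63.9 CPM in control libraries. Choroid plexus and ependyma markers summed to 30.3 to 54.9 CPM in restraint libraries and 37.9 to 56.0 CPM in control libraries, with Foxj1 at 31.6 and 31.5 CPM and Ttr at 0.0298 to 13.3 CPM in restraint libraries and 0.268 to 15.4 CPM in control libraries.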
